A study of Mus musculus with 79 samples.

Results

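The genes described here are 29 mouse genes of cholesterol synthesis and transport, taken from the deposited tables by gene symbol. They comprise 19 enzymes from acetyl-CoA to cholesterol, 4 genes of the SREBP2 switch (Srebf2, Scap, Insig1 and Insig2), 3 genes that move cholesterol inside the cell (Stard4, Npc1 and Npc2) and 3 genes controlled by liver X receptors (Abca1, Abcg1 and Mylip). All 29 were among the 14873 genes that passed an expression filter of a mean TPM of 0.4 or more, a share of transcripts corrected for gene length, of 39063 features with a numeric gene ID. RNA was sequenced from 79 samples of 51 mice aged 4 to 5 months, 18 female and 33 male. Caudal vertebrae (CV), which are filled with stable marrow fat, were taken from all 51 mice, lumbar vertebrae (LV), used as a bone sample without fat, from the 18 females, and inguinal white adipose tissue (iWAT) from 10 WT females. Mice received PBS or leptin at 100 ng per h into the cerebral ventricles (ICV) for 9 days. WT mice were BMAd-Pnpla2+/+ and cKO mice BMAd-Pnpla2-/-, which lack ATGL, the triglyceride lipase encoded by Pnpla2, in bone marrow adipocytes only. Both were littermates of a mixed SJLxC57BL6 background. The drivers of that deletion are not given in the sources used here. The WT groups of PBS and leptin held 5 and 5 females and 5 and 8 males for CV, 5 and 5 females for LV and 5 and 5 females for iWAT. The cKO groups held 4 and 4 females for CV and for LV, and 5 and 4 males for CV. A further 5 PBS and 6 leptin males, all WT, were also given insulin subcutaneously, and only their CV was sequenced.

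Libraries held 16100377 to 19364106 counts for CV, 28717516 to 29757254 for LV and 17638318 to 19100698 for iWAT. Pnpla2 averaged 251 ± 30.02 TPM (SD, n = 5) in CV of female WT mice with PBS and 179 ± 58.4 (n = 4) in cKO, with overlapping ranges. Summed TPM of 6 adipocyte markers (Adipoq, Plin1, Cidec, Fabp4, Lipe and Pparg) was 38382 to 55167 in iWAT, 6027 to 7904 in CV and 261 to 435 in LV of female WT mice with PBS, and no marker was at 0. The same CV libraries held 23057 to 49007 TPM of 10 skeletal muscle markers. LV libraries held 104173 to 146662 TPM of 6 erythroid markers and 96945 to 119969 of 7 neutrophil markers. In such bulk samples fewer cells of a type and less RNA per cell cannot be told apart.

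Cholesterol is built from acetyl-CoA through mevalonate, isoprenoids, squalene and lanosterol. Its genes are switched on together by SREBP2, which the escort protein SCAP carries out of the endoplasmic reticulum when sterols are low, while INSIG proteins hold it back when sterols are high. Insig1 is itself a target of SREBP2. When oxysterols accumulate, liver X receptors raise the exporters Abca1 and Abcg1 and the ubiquitin ligase Mylip, which removes lipoprotein receptors. White adipocytes store a large pool of free cholesterol around their lipid droplets, and take much of it from lipoproteins.

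In iWAT of female WT mice, ICV leptin lowered 14 of the 29 genes and raised 3. The 17 differentially expressed genes (DEGs, adjusted p-value below 0.05 in edgeR's quasi-likelihood test and a change of 0.5 or more on the log2 scale in either direction) were 58.6% of the list, compared with 15.1% of all tested genes (7.87% lower and 7.24% higher). Genes that fell were 13 of the 19 enzymes and Insig1, and those that rose were Npc1, Lbr and Abcg1. Mean TPM with leptin was 22.0% to 55.8% of that with PBS for the 14 that fell and 138% to 193% for the 3 that rose. The median log2 fold change was -0.60 over the 29 genes and 0.07 over all tested genes. Leptin and PBS TPM did not overlap for 13 genes that were lower with leptin, where 14.3% of all genes were lower without overlap, and for 1 gene that was higher, where the share of all genes was 4.32%. On log2 TPM with limma there were also 17 DEGs, but 16 were lower and 1 higher. Lbr and Abcg1 missed the fold-change threshold there (0.495 and 0.41), and Npc2 passed it. Acat2, past that threshold in both fits, had an adjusted p-value below 0.05 with limma only.

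**Figure D1:**
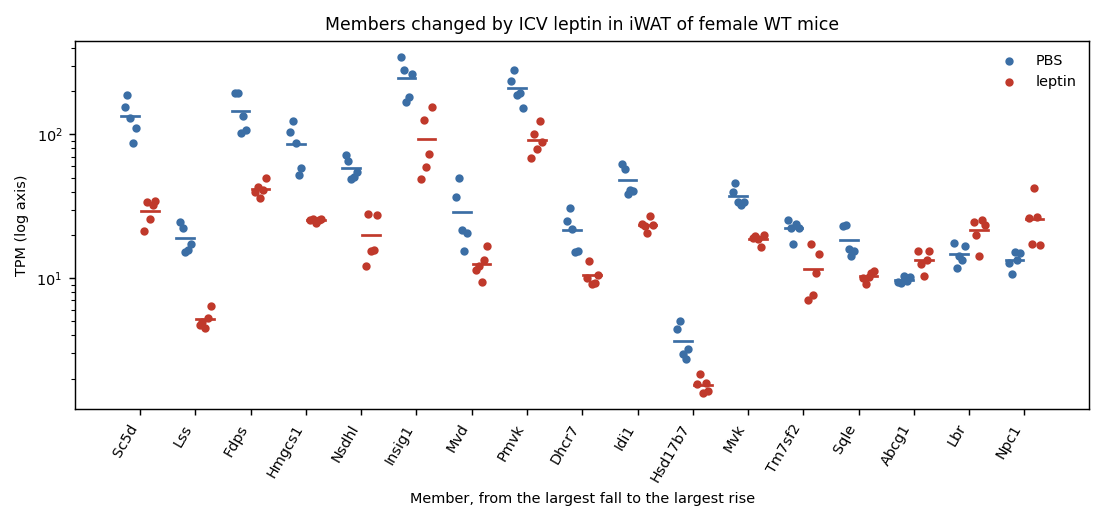
TPM on a log axis of the 17 genes changed by ICV leptin in iWAT of female WT mice, with a point per mouse (5 PBS, blue, and 5 leptin, red) and a line at the mean. Sc5d, at the left, was at 87.2 to 187.5 TPM with PBS and 21.1 to 34.4 with leptin, and Npc1, at the right, was the gene of the 3 that rose whose leptin values all lay above its PBS values.

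The mevalonate arm had the most complete change, with 6 of 7 enzymes lower and the seventh, Acat2, just short of a call. Hmgcs1, which condenses acetyl-CoA with acetoacetyl-CoA and lies at chr13:119690351-119708260 in GRCm38.p6, was at 104, 124, 87.2, 52.6 and 58.5 TPM in the 5 PBS mice and at 25.3, 25.9, 24.3, 25.3 and 25.9 in the 5 leptin mice. The leptin values of Hmgcs1 lay within a far narrower band than the PBS values, with all 5 under the lowest PBS mouse and a log2 fold change of -1.66 ± 0.21 (SE, adjusted p = 0.000549). Fdps, which makes farnesyl diphosphate for both sterols and protein prenylation, was at 193, 195, 102, 134 and 107 TPM with PBS and 39.9, 42.9, 36.4, 41.1 and 49.6 with leptin. Groups again did not overlap for Fdps, and the log2 fold change was -1.70 ± 0.20 (adjusted p = 0.000347). Mvk, the kinase that phosphorylates mevalonate, was at 39.98, 46.1, 33.99, 32.1 and 33.8 TPM with PBS and 19.1, 19.6, 18.8, 16.6 and 19.9 with leptin. That was a fall of close size in each leptin mouse, with a log2 fold change of -0.89 ± 0.11 (adjusted p = 0.000431). Pmvk, the next kinase, was at 234, 282, 186.6, 193 and 152 TPM with PBS and 68.99, 101, 79.1, 123 and 87.9 with leptin (-1.01 ± 0.20 on the log2 scale, adjusted p = 0.00531). Pmvk was the most abundant enzyme of the list in PBS iWAT, and its groups did not overlap.

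Idi1, the isomerase of isopentenyl diphosphate, was at 61.9, 57.4, 38.6, 40.8 and 40.6 TPM with PBS and 23.7, 23.1, 20.5, 26.9 and 23.5 with leptin, a log2 fold change of -0.93 ± 0.15 (adjusted p = 0.00172) without overlap. Mvd, the decarboxylase that makes isopentenyl diphosphate, was at 36.9, 49.5, 21.6, 15.4 and 20.5 TPM with PBS and 11.3, 12.1, 9.39, 13.4 and 16.7 with leptin. The groups of Mvd overlapped at 1 PBS mouse of 15.4 TPM and 1 leptin mouse of 16.7 TPM, the log2 fold change was -1.10 ± 0.31 and the adjusted p = 0.024. Mvd missed an adjusted p of 0.05 without PBS replicate 1 (0.0522) or leptin replicate 1 (0.0512). Acat2, the cytosolic acetoacetyl-CoA thiolase, was at 182.96, 179, 115, 135 and 136 TPM with PBS and 50.8, 96.8, 89.1, 99.5 and 123 with leptin, with a log2 fold change of -0.60 ± 0.23 and an adjusted p = 0.0748. Reads of Acat2 may be shared with its near-identical copy Acat3, so its level is uncertain.

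At the squalene step, Lss and Sqle fell and Fdft1 was not called. Lss, lanosterol synthase, was at 24.5, 22.2, 15.1, 15.7 and 17.2 TPM with PBS and 4.75, 4.96, 4.52, 5.29 and 6.39 with leptin. The gap between the groups of Lss was wide relative to their spread (-1.80 ± 0.15 on the log2 scale), and its adjusted p of 5.28e-05 was the lowest of the 29 genes. Sqle, the squalene epoxidase, was at 23.04, 23.5, 15.9, 14.4 and 15.6 TPM with PBS and 10.1, 9.10, 10.1, 10.9 and 11.3 with leptin (-0.75 ± 0.16, adjusted p = 0.00671), with no overlap. Fdft1, squalene synthase, was at 40.7 to 56.95 TPM with PBS and 29.4 to 57.2 with leptin, with a log2 fold change of -0.10 ± 0.17. Fdft1 lies beside the far more abundant Ctsb, with overlapping annotation, and whether reads were counted by strand is not given in the sources used here.

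From lanosterol to cholesterol, 5 of 9 enzymes fell and Lbr rose. Sc5d, the lathosterol desaturase, showed the largest fall of the list. It was at 154, 187.5, 129, 87.3 and 110.4 TPM with PBS and 21.1, 33.7, 25.97, 32.3 and 34.4 with leptin, and the log2 fold change was -1.99 ± 0.21 (adjusted p = 0.000198). Nsdhl, a sterol dehydrogenase of the C4 demethylation complex, was at 71.5, 64.95, 48.8, 50.3 and 55.1 TPM with PBS and 12.2, 28.1, 15.5, 15.8 and 27.7 with leptin. All 5 leptin values of Nsdhl lay under the lowest PBS value (-1.45 ± 0.24, adjusted p = 0.00192), and leptin replicates 2 and 5 were the highest. Hsd17b7, the ketoreductase of the same complex, was low throughout, at 4.41, 5.04, 2.98, 2.73 and 3.21 TPM with PBS and 1.83, 2.15, 1.60, 1.85 and 1.65 with leptin (-0.92 ± 0.18, adjusted p = 0.0053). Dhcr7, which makes cholesterol from 7-dehydrocholesterol, was at 24.9, 30.7, 21.9, 15.2 and 15.4 TPM with PBS and 10.1, 13.2, 9.13, 9.29 and 10.5 with leptin (-0.98 ± 0.18, adjusted p = 0.00349). Neither Hsd17b7 nor Dhcr7 showed overlap between groups.

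The sterol C14 reductases moved in opposite directions. Tm7sf2, a reductase of the endoplasmic reticulum, was at 25.2, 22.4, 17.3, 23.8 and 22.3 TPM with PBS and 7.06, 17.3, 7.65, 10.8 and 14.6 with leptin (-0.86 ± 0.24, adjusted p = 0.0258). Lbr, which has the same reductase activity and is also a receptor of the nuclear lamina, was at 17.6, 11.9, 14.3, 13.5 and 16.8 TPM with PBS and 24.4, 19.9, 14.3, 25.3 and 23.6 with leptin (0.63 ± 0.16, adjusted p = 0.0147). Both genes overlapped between groups, Tm7sf2 through 1 leptin mouse at 17.3 TPM and 1 PBS mouse at the same level, and Lbr through 1 leptin mouse at 14.3 TPM. Tm7sf2 shares genomic sequence with Vps51 and had an adjusted p of 0.0502 to 0.0569 when PBS replicate 1, 2 or 4 or leptin replicate 4 was left out. The other 3 enzymes had log2 fold changes of -0.41 for Cyp51, -0.18 for Msmo1 and 0.19 for Ebp and adjusted p-values of 0.205, 0.385 and 0.119.

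Of the SREBP2 switch, Insig1 fell while the transcription factor and its escort gave no call. Insig1 was at 343, 282, 167.9, 182.8 and 265 TPM with PBS and 48.8, 126, 59.4, 72.6 and 156 with leptin (-1.32 ± 0.33, adjusted p = 0.0158). The highest leptin value of Insig1 was under the lowest PBS value, and leptin replicates 2 and 5 stood above the other 3. Srebf2 was at 34.6, 29.1, 28.1, 30.4 and 30.2 TPM with PBS and 45.5, 32.9, 22.5, 40.9 and 36.1 with leptin, with a log2 fold change of 0.33 ± 0.15 and an adjusted p = 0.139. The groups of Srebf2 overlapped, with 3 of 5 leptin mice above the highest PBS mouse and 1 below the lowest. Scap and Insig2 had log2 fold changes of -0.02 ± 0.07 and -0.23 ± 0.13 (adjusted p = 0.853 and 0.199).

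Of the 6 genes of transport and efflux, 2 were called and both rose. Npc1, which exports cholesterol from lysosomes, was at 12.8, 10.7, 15.1, 13.3 and 14.9 TPM with PBS and 26.1, 17.2, 42.1, 26.4 and 17.1 with leptin (1.05 ± 0.24, adjusted p = 0.00941), and Npc1 overlaps Rmc1 in the annotation. Npc2, the soluble lysosomal protein that hands cholesterol to NPC1, was instead lower in all 5 leptin mice, at 308 to 365 TPM with PBS and 212 to 251 with leptin. Its log2 fold change of -0.47 ± 0.09 was under the fold-change threshold, with an adjusted p = 0.0048. Among the liver X receptor targets, the sterol exporter Abcg1 was at 9.34, 9.27, 10.4, 9.53 and 10.2 TPM with PBS and 15.5, 12.5, 10.4, 13.3 and 15.6 with leptin (0.55 ± 0.11, adjusted p = 0.00483). Leptin replicate 3 was the mouse of Abcg1 that fell within the PBS range, and without leptin replicate 1 or 5 the fold change of Abcg1 was 0.49 or 0.48, under the threshold. Mylip had a log2 fold change of 0.43 ± 0.10 (adjusted p = 0.0108), also under the threshold, Abca1 one of 0.11 ± 0.18 and the sterol carrier Stard4 one of 0.04 ± 0.15 (adjusted p = 0.685 and 0.851).

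Summed over the 19 enzymes, iWAT held 1147 ± 250 TPM with PBS and 551 ± 77.4 with leptin (SD, n = 5 each). The lowest PBS library was at 956 TPM and the highest leptin library at 629 TPM. PBS replicates 1 and 2 were the highest pair of the PBS group for 14 of the 19 enzymes, with sums of 1366 and 1469 TPM, while the other 3 PBS mice were at 956 to 985. Among leptin mice, replicate 1 was the lowest for 9 enzymes and had the lowest sum, 440.0 TPM. Mouse numbers in the labels fall into a 100s and a 600s series (3 PBS and 2 leptin mice in the 100s and 2 and 3 in the 600s). All 14 genes that fell and all 3 that rose moved in the same direction within each series. These genes were called from the same libraries, so their shared direction is not an independent check. Except for Tm7sf2, each gene that fell did so by less among 600s mice. Mvd, for example, differed by -0.44 on the log2 scale there, beside -1.47 among 100s mice, and Tm7sf2 by -1.04 beside -0.88.

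**Figure D2:**
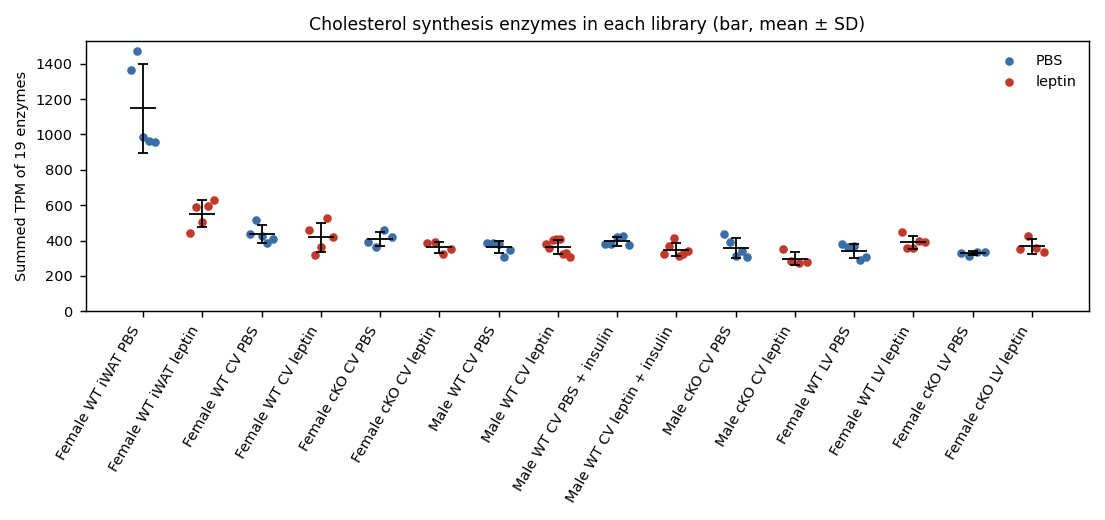
Summed TPM of the 19 enzymes in each of the 79 libraries by group, with PBS in blue, leptin in red and black bars for mean ± SD. The leptin and PBS groups overlap in each CV and LV comparison and do not in iWAT, at 956 to 1469 TPM with PBS and 440.0 to 629 with leptin.

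Adipocyte markers moved with this change. Their sum was 38382 to 55167 TPM with PBS and 13127 to 30934 with leptin in iWAT, and 3 of the 6 were DEGs, all lower (Fabp4, Lipe and Plin1), while Cidec had a log2 fold change of 0.72. With the adipocyte markers of each library as a covariate, a choice made after the data were seen, 13 of the 29 genes were DEGs and all were lower. The covariate was the mean log2(TPM + 1) of the 6 markers, not their sum, and its own overlap between the groups is not given. Because the marker sums did not overlap, marker level cannot be cleanly separated from leptin here. Npc2 was then called, and Insig1 (-1.01, adjusted p = 0.164), Tm7sf2 (-0.49, 0.32), Npc1 (1.09, 0.0896), Lbr (0.57, 0.171) and Abcg1 (0.49, 0.0822) were not. The 6 erythroid markers also summed to less with leptin (143 to 821 TPM against 1399 to 1970, 4 of 6 DEGs), and their part was not tested. Sums of 6 mammary epithelium markers were 827 to 1304 TPM with PBS and 624.9 to 1439 with leptin, with 0 DEGs, and those of 5 hepatocyte markers 85.1 to 489 and 6.87 to 1051, with 0 DEGs. All 6 lymphoid markers had log2 fold changes above 0 (0.95 to 1.55, none a DEG), with sums of 62.0 to 268 TPM with PBS and 8.34 to 514 with leptin, and their part was not tested. Skeletal muscle RNA was present in PBS replicate 4 and leptin replicate 2, which had the highest sums of their groups, 3262 and 4498 TPM, and without both libraries 18 genes were DEGs.

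The promoters of the 6 genes with the largest fall that have an entry in the RefSeq promoter table (GRCm38.p6) are printed here because genes of this pathway share short upstream elements. Each line gives the 250 bases before the start that the promoter table uses, 5′ to 3′ on the strand of the gene. For Lss that start lies inside the annotated gene, which begins at 76531565, so the end of its window is within the gene. Capitals mark the matches, on either strand, to CCAAT and ATTGGC (which overlaps the complement of CCAAT), the letters bound by NF-Y, and to TCACCCNAC, TCACCCCAC (a case of it) and CACCCCAC (held within that), which are forms of the sterol regulatory element. Windows were chr9:42264301-42264550 (minus strand) for Sc5d, chr10:76531355-76531604 (plus) for Lss, chr13:119690101-119690350 (plus) for Hmgcs1, chrX:72918271-72918520 (plus) for Nsdhl, chr5:28071162-28071411 (plus) for Insig1 and chr8:122443423-122443672 (minus) for Mvd.
Sc5d: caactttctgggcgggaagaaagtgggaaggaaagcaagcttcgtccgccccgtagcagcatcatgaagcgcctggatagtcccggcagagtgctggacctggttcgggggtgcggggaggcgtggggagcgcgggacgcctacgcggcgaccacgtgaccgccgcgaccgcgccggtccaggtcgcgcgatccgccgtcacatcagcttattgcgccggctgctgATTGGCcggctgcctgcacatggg
Lss: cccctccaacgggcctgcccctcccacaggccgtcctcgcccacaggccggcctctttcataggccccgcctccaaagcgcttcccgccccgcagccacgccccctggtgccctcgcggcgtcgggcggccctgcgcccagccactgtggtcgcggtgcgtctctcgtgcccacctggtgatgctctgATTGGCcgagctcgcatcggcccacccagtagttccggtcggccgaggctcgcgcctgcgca
Hmgcs1: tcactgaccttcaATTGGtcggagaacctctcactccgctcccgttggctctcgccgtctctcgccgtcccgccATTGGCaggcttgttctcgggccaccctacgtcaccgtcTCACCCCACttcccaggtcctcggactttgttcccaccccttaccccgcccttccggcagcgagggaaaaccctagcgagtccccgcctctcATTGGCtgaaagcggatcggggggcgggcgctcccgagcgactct
Nsdhl: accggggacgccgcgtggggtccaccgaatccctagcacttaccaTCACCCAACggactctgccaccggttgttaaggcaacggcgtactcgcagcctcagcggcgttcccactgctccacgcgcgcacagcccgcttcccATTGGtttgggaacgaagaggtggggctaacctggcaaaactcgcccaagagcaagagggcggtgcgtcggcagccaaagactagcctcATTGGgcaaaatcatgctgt
Insig1: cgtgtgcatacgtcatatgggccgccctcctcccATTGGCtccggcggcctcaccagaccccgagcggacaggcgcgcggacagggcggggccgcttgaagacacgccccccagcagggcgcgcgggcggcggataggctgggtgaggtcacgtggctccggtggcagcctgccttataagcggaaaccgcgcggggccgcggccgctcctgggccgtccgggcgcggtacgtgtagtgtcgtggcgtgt
Mvd: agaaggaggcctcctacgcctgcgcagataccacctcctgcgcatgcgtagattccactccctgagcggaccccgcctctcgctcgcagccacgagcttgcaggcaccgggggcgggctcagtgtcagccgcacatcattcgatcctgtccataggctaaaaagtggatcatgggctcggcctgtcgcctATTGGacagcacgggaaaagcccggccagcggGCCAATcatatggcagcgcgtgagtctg

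Hmgcs1 holds TCACCCCAC from 137 bases before its start, with ATTGGC matches on either side, the nearer to the start at 45 bases. Nsdhl holds TCACCCNAC from 205 bases before its start and CCAAT, on the other strand, from 109 and 20 bases. Among the 23 of 29 genes with an entry, 20 held CCAAT in these 250 bases, compared with 37.5% of the 27025 genes of the table, and 15 held ATTGGC, compared with 15.3%. TCACCCNAC was found in 2 of 23 (Hmgcs1 and Nsdhl) and in 0.981% of all genes. TCACCCCAC was found in 1 of 23 (Hmgcs1) and in 0.555% of all genes. CACCCCAC was found in 2 of 23 (Acat2 and Hmgcs1) and in 2.98% of all genes. CCAAT was present in all 12 genes with an entry that fell in iWAT and in 8 of the 11 others. Such matches describe letters only and say nothing of binding.

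ICV leptin had a different effect on 10 of the 29 genes in iWAT than in CV of the same female WT mice. These were 34.5% of the list, against 15.5% of all genes (tissue by leptin interaction, adjusted p-value below 0.05). The fit held no term for the mouse, so the iWAT and CV libraries of a mouse entered as independent. All 10 differences were negative, and 9.12% of all genes passed with a negative difference. The largest were those of Lss (-1.78 ± 0.19, adjusted p = 1.08e-05), Sc5d (-1.66 ± 0.25, 0.000275), Fdps (-1.59 ± 0.31, 0.00228) and Hmgcs1 (-1.24 ± 0.30, 0.00909). Lss makes the contrast plain, since in CV it was at 5.65, 5.73, 5.19, 5.81 and 6.49 TPM with PBS and 6.68, 3.72, 5.98, 6.76 and 5.34 with leptin, a log2 fold change of -0.06 ± 0.10. Nsdhl, Hsd17b7, Dhcr7, Mvk and Pmvk completed the enzymes among the 10, with differences of -1.20, -1.16, -1.05, -0.93 and -0.84. The remaining gene was Npc2, whose log2 fold change was -0.47 in iWAT and 0.38 in CV, with a difference of -0.89 ± 0.14 (adjusted p = 0.000475). DESeq2 gave 16 genes for the same interaction, of which 13 were negative and Npc1, Lbr and Mylip positive. Of the genes changed in iWAT, Insig1, Mvd, Idi1, Tm7sf2, Sqle, Npc1, Lbr and Abcg1 did not pass the edgeR interaction, which does not show that their response is alike in CV and iWAT.

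**Figure D3:**
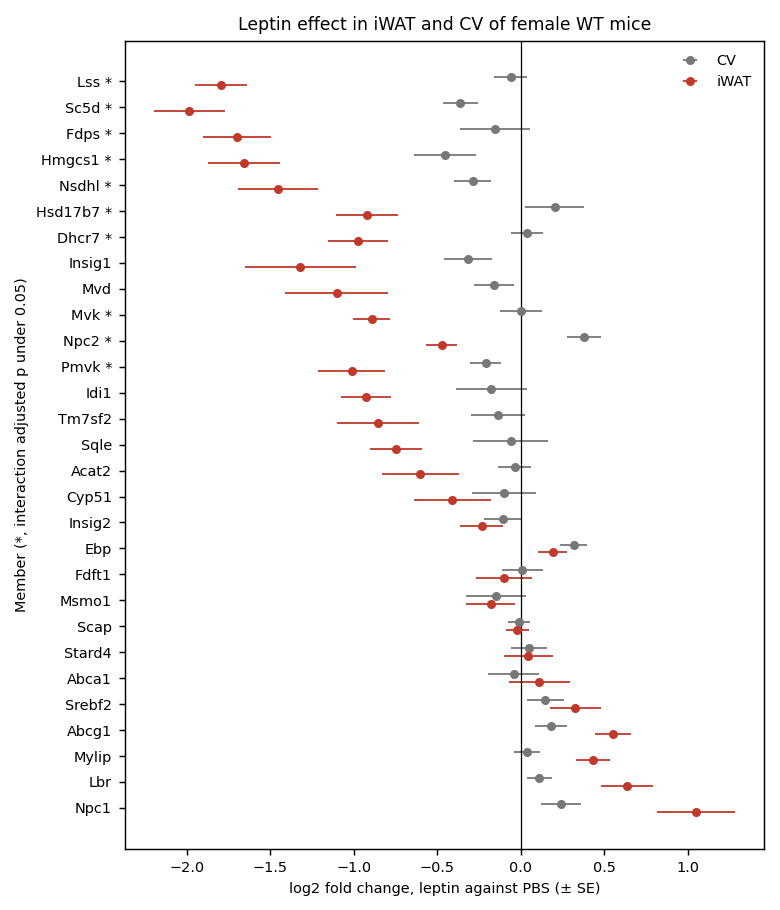
Log2 fold change of leptin against PBS, with SE, of the 29 genes in iWAT (red) and CV (grey) of female WT mice (5 against 5 in each tissue), in order of the difference between tissues. The 10 genes marked * passed the interaction test, led by Lss at -1.80 in iWAT and -0.06 in CV.

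In CV, ICV leptin gave 0 DEGs among the 29 genes in each of the 4 comparisons by edgeR. The share of all genes called was 5.04% in female WT, 1.75% in male WT, 0.0269% in female cKO and 0.188% in male cKO. Counted by an unadjusted p-value below 0.05, 7 of 29 genes passed in female WT, 5 in male WT, 9 in female cKO and 12 in male cKO, compared with 25.8%, 18.98%, 11.6% and 9.66% of all genes. DESeq2 gave 0 in both WT sexes, 2 in female cKO (Npc2, 0.59, and Hmgcs1, -0.54) and 1 in male cKO (Hmgcs1, -0.63), while limma gave 0 in all 4. The adjusted p-value alone, below the fold-change threshold, was passed by 3 genes. These were Ebp (0.32, adjusted p = 0.0373) and Npc2 (0.38, 0.0437) in female WT and Npc1 (0.35, 0.034) in male WT, all higher with leptin. The 4 comparisons have no sample in common. In female WT CV, adipocyte marker sums were 6027 to 7904 TPM with PBS and 3690 to 6363 with leptin, and erythroid sums 1167 to 3754 and 2316 to 10764. Of the 6 adipocyte markers, 3 were DEGs, all lower, in female WT CV and in male WT CV. The 5 macrophage markers had log2 fold changes of 0.11 to 0.87 in female WT CV, where 2 of 5 (Cd68 and Mrc1) were DEGs, and of 0.27 to 0.47 in male WT CV, where none was. Of 5 osteoblast markers, 2 (Col1a1 and Sp7) were DEGs in female WT CV, both higher. The part of these cell types in the values was not tested.

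Hmgcs1 had the most negative log2 fold change of the list in all 4 CV comparisons, without a call by edgeR as fitted here in any of them. In female WT CV it was at 56.3, 70.7, 47.8, 44.1 and 44.4 TPM with PBS and 48.8, 24.7, 32.2, 51.7 and 40.98 with leptin, and in male WT CV at 42.6, 47.7, 38.5, 30.7 and 36.2 with PBS and 20.3 to 37.1 with a median of 31.3 in the 8 leptin mice. Log2 fold changes were -0.46 ± 0.19 and -0.43 ± 0.13, with adjusted p-values of 0.147 and 0.0971, and the groups overlapped in both sexes. In female cKO CV it was at 43.3, 38.8, 54.5 and 47.3 with PBS and 26.2, 36.6, 24.7 and 31.4 with leptin, with no overlap (-0.54 ± 0.14, adjusted p = 0.252). In male cKO CV it was at 53.8, 45.3, 33.4, 34.5 and 29.04 with PBS and 31.03, 21.7, 21.7 and 23.1 with leptin (-0.62 ± 0.12, adjusted p = 0.0688). Hmgcs1 in male cKO CV was called without PBS replicate 5 (-0.70, adjusted p = 0.0389) or with replicate numbers as a block (-0.69, 0.04995). Male cKO PBS mice were of the 100s and 5400s series by their numbers, and leptin mice of the 100s, 5400s and 600s. Those of the 100s (PBS replicates 1 and 2 and leptin replicate 1) had the highest Hmgcs1 of their groups. In female cKO mice the 600s held a PBS mouse but no leptin mouse. Mouse series was not tested as a covariate in cKO mice. TPM without overlap between leptin and PBS was seen for 1 gene in female WT (Npc2, higher), 0 in male WT, 2 in female cKO (Hmgcs1, lower, and Npc2, higher) and 1 in male cKO (Insig1, lower), compared with 6.56%, 2.19%, 5.02% and 2.72% of all genes.

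Insig1, of the SREBP2 switch, was at 59.5, 75.2, 54.2, 48.7 and 58.6 TPM with PBS and 61.97, 31.8, 47.1, 53.97 and 51.01 with leptin in female WT CV (-0.31 ± 0.14, adjusted p = 0.193). In male WT CV it was at 39.9, 39.2, 39.5, 32.2 and 41.3 with PBS and 33.1 to 50.6 with a median of 39.7 with leptin (0.01 ± 0.10). It was at 51.02, 42.7, 66.6 and 56.1 with PBS and 43.9, 43.8, 38.3 and 56.4 with leptin in female cKO CV (-0.13 ± 0.18). Groups overlapped in these 3 comparisons, but not in male cKO CV, where Insig1 was at 54.95, 47.2, 37.3, 40.8 and 37.98 with PBS and 35.7, 26.7, 31.6 and 30.7 with leptin (-0.43 ± 0.08, adjusted p = 0.0535). Adipocyte marker sums in the male cKO libraries were 4306 to 6616 TPM with PBS and 4091 to 5069 with leptin, and their part in the Insig1 values was not tested. Male cKO mice of the 100s series (PBS replicates 1 and 2 and leptin replicate 1) also had the highest Insig1 of their groups. The part of mouse series was not tested there.

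Srebf2, which encodes SREBP2, was at 39.1, 42.4, 49.4, 37.3 and 42.5 TPM with PBS and 55.9, 34.2, 46.3, 56.3 and 48.4 with leptin in CV of female WT mice (0.15 ± 0.11). In male WT CV its values were 30.7, 28.5, 33.99, 25.2 and 31.9 with PBS and 31.5 to 36.8 with a median of 33.6 with leptin (0.12 ± 0.06). Female cKO CV held 42.2, 41.9, 50.6 and 42.4 TPM of Srebf2 with PBS and 50.3, 49.3, 39.9 and 25.1 with leptin (-0.04 ± 0.14). The groups overlapped in these 3 comparisons, as they did in male cKO CV, where Srebf2 was at 35.1, 34.5, 23.7, 27.6 and 24.1 with PBS and 33.2, 26.1, 28.3 and 23.3 with leptin (-0.01 ± 0.09). Adjusted p-values of Srebf2 were 0.294 to 0.987 over the 4 comparisons.

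Sqle, the epoxidase that fell in iWAT, was at 16.9, 20.8, 15.8, 13.3 and 13.9 TPM with PBS and 20.1, 8.91, 11.7, 24.5 and 15 with leptin in CV of female WT mice (-0.06 ± 0.22). Male WT CV held 13.7, 14.1, 13.7, 8.29 and 10.4 TPM of Sqle with PBS and 8.36 to 16.03 with a median of 12.8 with leptin (0.02 ± 0.15). Neither sex of WT mice showed a shift beyond the spread between mice. Female cKO CV held 11.8, 13.5, 18.3 and 16.2 with PBS and 11.3, 12.4, 9.01 and 10.7 with leptin (-0.38 ± 0.13), and male cKO CV 17.1, 14.03, 8.74, 10.5 and 7.88 with PBS and 11.1, 6.59, 6.78 and 7.34 with leptin (-0.49 ± 0.17). Groups overlapped in all 4 comparisons of Sqle, and its adjusted p-values were 0.344 to 0.964. In male cKO CV, Sqle too was highest in the 100s mice of each group.

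**Figure D4:**
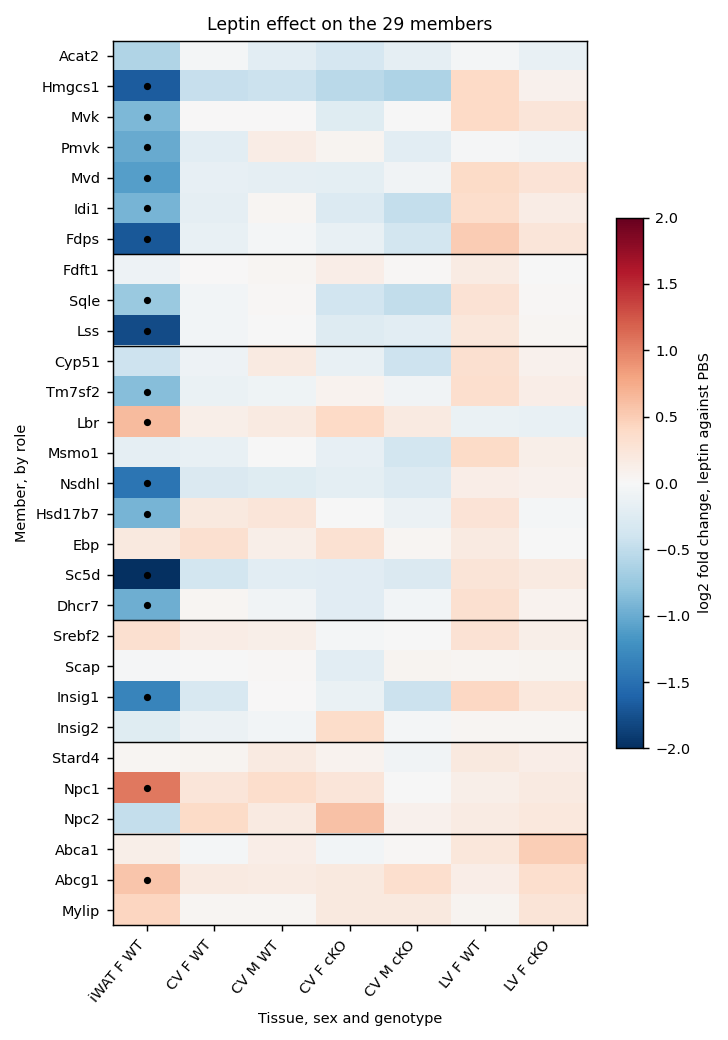
Log2 fold change of leptin against PBS for the 29 genes (rows, by role, with lines between roles) in 7 comparisons (columns), blue for lower and red for higher with leptin, with a dot for each DEG. The 17 dots all lie in the iWAT column, and the LV column of female WT mice is red for 26 of the 29 genes without a DEG.

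In LV, 0 of the 29 genes and 0% of all genes were DEGs in WT or in cKO females by edgeR. In WT LV, 26 of the 29 log2 fold changes were above 0, with a median of 0.22 (0.01 over all genes), and 15 genes had an unadjusted p-value below 0.05, where 14.7% of all genes did. The lowest p was that of Fdps, at 51.2, 52.5, 48.3, 35.9 and 40.3 TPM with PBS and 83.99, 54.8, 56.9, 65.02 and 72 with leptin (0.51 ± 0.11, adjusted p = 0.099). Groups did not overlap for Fdps and Mvk, both higher with leptin, or 2 of 29 genes against 1.02% of all genes. Fdps was the DEG that DESeq2 gave (0.50, adjusted p = 0.00267), whereas limma gave 0. Erythroid marker sums in the same libraries were 104173 to 146662 TPM with PBS and 74436 to 121794 with leptin, and their part in these values was not tested. In cKO LV, 23 of 29 fold changes were above 0 with a median of 0.12, and 3 genes had an unadjusted p-value below 0.05 (8.95% of all genes). These were Abcg1 (0.34), Abca1 (0.49) and Npc1 (0.18), and DESeq2 and limma gave 0 DEGs. Mvk and Sc5d did not overlap in cKO LV, both higher with leptin, where 4.02% of all genes were higher without overlap.

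In LV of WT mice, Insig1 was at 14.6, 14.2, 13.1, 8.10 and 10.5 TPM with PBS and 20.9, 14.1, 13.2, 18.7 and 15.03 with leptin (0.41 ± 0.13, adjusted p = 0.189). Srebf2 was at 26.6, 24.5, 24.3, 13.5 and 18.2 with PBS and 30.1, 26.3, 20.5, 29.8 and 26.2 with leptin (0.28 ± 0.11). Sqle was at 10.01, 10.1, 10.1, 6.39 and 6.72 with PBS and 13.03, 8.51, 9.73, 12.3 and 10.3 with leptin (0.29 ± 0.13). PBS replicates 4 and 5 were the lowest of the PBS group for all 3 genes, and the groups overlapped for each. In LV of cKO mice, Insig1 was at 13.04, 12.3, 12.3 and 11.9 with PBS and 15.3, 20.5, 15.03 and 12.8 with leptin (0.21 ± 0.11). Srebf2 was there at 16.4, 16.3, 23.9 and 18.3 with PBS and 17.99, 28.9, 22.5 and 21.1 with leptin (0.12 ± 0.09), and Sqle at 7.63, 8.04, 8.95 and 9.41 with PBS and 9.52, 12.2, 9.39 and 7.07 with leptin (0.02 ± 0.14). These 3 genes overlapped between groups in cKO LV as well.

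Loss of ATGL in marrow adipocytes alone gave 0 DEGs among the 29 genes in female CV, male CV and female LV of mice with PBS, where 0% of all genes were DEGs. An unadjusted p-value below 0.05 was found for 1, 2 and 1 of 29 genes, compared with 9.92%, 5.26% and 2.61% of all genes, and DESeq2 and limma gave 0 in all 3. These were Stard4 in female CV (-0.23 ± 0.10), Mvd (-0.32 ± 0.10) and Insig1 (0.19 ± 0.08) in male CV and Tm7sf2 in female LV (0.25 ± 0.10). Interaction of genotype with leptin in CV gave 0 of 29 genes and 0% of all genes in either sex by edgeR, with 3 and 5 genes at an unadjusted p-value below 0.05 in females and males (6.09% and 2.64% of all genes). The interaction of sex with leptin in WT CV gave 0 of 29 and 0% of all genes, with 1 gene at an unadjusted p-value below 0.05 (7.60% of all genes). DESeq2 and limma gave 0 members for all 3 of these interactions.

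Insulin was given to male WT mice whose numbers are all in the 300s or 400s series, which hold only insulin-treated mice, so insulin and mouse series cannot be told apart. The PBS mice with insulin were all of the 300s, whereas leptin mice with insulin were of both series. The part of mouse series in leptin against PBS with insulin was not tested. None of the 29 genes was a DEG for leptin with insulin against leptin (0.363% of all genes), for PBS with insulin against PBS (0%), for leptin with insulin against PBS with insulin (0.558%) or against PBS without insulin (1.1%). Unadjusted p-values below 0.05 numbered 9, 1, 10 and 10 of 29 by edgeR, compared with 16.6%, 6.56%, 15.5% and 17.2% of all genes, and DESeq2 and limma gave 0 DEGs. Insig1 was at 50.7, 47.8, 48.6, 52.4 and 41.04 TPM with PBS and insulin and 29.6 to 45.4 with a median of 34.7 in the 6 mice with leptin and insulin. That was a log2 fold change of -0.35 ± 0.11 (adjusted p = 0.108), beside 0.01 ± 0.10 for leptin without insulin. Srebf2 was at 34.95, 32.6, 34.9, 34.7 and 31.3 with PBS and insulin and 22.2 to 33.1 with a median of 29.4 with leptin and insulin. Against leptin alone, leptin with insulin gave Srebf2 a log2 fold change of -0.23 ± 0.06 with an adjusted p = 0.0541, the lowest of the list in that comparison. Sqle was at 12.8, 12.4, 16.4, 14.02 and 13.3 with PBS and insulin and 7.35 to 13.99 with a median of 9.40 with leptin and insulin (-0.43 ± 0.16, adjusted p = 0.178). The interaction of insulin with leptin gave 0 of 29 genes and 0% of all genes, with 6 at an unadjusted p-value below 0.05 (9.31% of all genes), and 0 by DESeq2 and limma.

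With PBS, the tissues of female WT mice differed in many of these genes, as in many of all genes. Of the 29 genes, 69.0% were called for CV against iWAT, compared with 50.5% of all genes. The shares were 58.6% and 66.6% for CV against LV and 69.0% and 66.5% for iWAT against LV. Counted in either direction, the list thus stood well above all genes only for CV against iWAT. By direction it also did so for iWAT against LV, where 18 of the 29 genes and 33.9% of all genes were higher in iWAT. In female WT mice with PBS, 20 of the 29 genes were DEGs between CV and iWAT, 17 lower in CV and 3 higher, where 50.5% of all genes were called (24.5% lower and 26% higher). All 7 enzymes of the mevalonate arm were lower in CV. Acat2 was at 16.7, 20.9, 17.6, 17.7 and 18.4 TPM in CV and 182.96, 179, 115, 135 and 136 in iWAT (-3.19 ± 0.14, adjusted p = 5.27e-09). Pmvk was at 31.2, 40.0, 33.2, 28.9 and 31.2 in CV (-2.63 ± 0.17) and Sc5d at 26.5, 32.1, 24.9, 25.2 and 25.7 (-2.59 ± 0.19), set against the iWAT values above. No CV library reached the lowest iWAT library for these 3 genes. The genes higher in CV were Lbr, at 29.5, 33.5, 35.9, 39.7 and 35.1 TPM (1.08 ± 0.10), Npc1, at 18.2, 17.7, 20.2, 23.3 and 27.9 (0.52 ± 0.11), and Hsd17b7, at 6.05, 6.77, 4.92, 5.66 and 5.82 (0.51 ± 0.17). Hsd17b7 dropped under the fold-change threshold without replicate 3, 4 or 5 (0.45 to 0.48), and Npc1 without replicate 5 (0.47).

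Between CV and LV, 17 of 29 genes were DEGs, 9 higher and 8 lower in CV, where 66.6% of all genes were called (34.9% higher and 31.7% lower). Abca1, the exporter that loads apolipoprotein A1, differed most among those higher in CV, at 23.2, 24.5, 19.2, 27.5 and 29.98 TPM in CV and 2.30, 2.08, 2.71, 2.16 and 3.05 in LV (2.23 ± 0.12). Hmgcs1 was at 12.5, 11.5, 13.3, 7.65 and 8.59 in LV (1.22 ± 0.16) and Insig1 followed with a log2 fold change of 1.20 ± 0.14. For these 3 genes every CV library lay above every LV library. Lbr was the reverse, at 135, 128, 129.9, 114 and 108 TPM in LV (-2.93 ± 0.09), and it was also lower in iWAT than in LV (-3.99 ± 0.11). Next were Stard4, at 7.98, 9.53, 7.85, 7.65 and 8.29 TPM in CV and 10.4, 9.00, 9.76, 5.83 and 6.82 in LV (-1.10 ± 0.12), and Fdps, at 51.9, 65.8, 51.9, 34.2 and 41.7 in CV and 51.2, 52.5, 48.3, 35.9 and 40.3 in LV (-1.003 ± 0.16). Their TPM overlapped between tissues, so the direction depends on the scaling. On log2 TPM with limma the median of all genes was 0.87 higher in CV than in LV (0.02 with edgeR), and it was 0.14 higher in CV than in iWAT and 0.71 higher in iWAT than in LV. In that fit of CV against LV, 22 of the genes were higher and 1 lower, and Lbr alone of the 8 kept its direction. The other 7 (Stard4, Fdps, Msmo1, Ebp, Idi1, Npc2 and Tm7sf2) turned positive. All 7 stayed below that median. Between iWAT and LV, 20 of 29 genes were DEGs, 18 of them higher in iWAT (66.5% of all genes were called, 33.9% higher and 32.6% lower), led by Insig1 (3.43 ± 0.21).

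**Figure D5:**
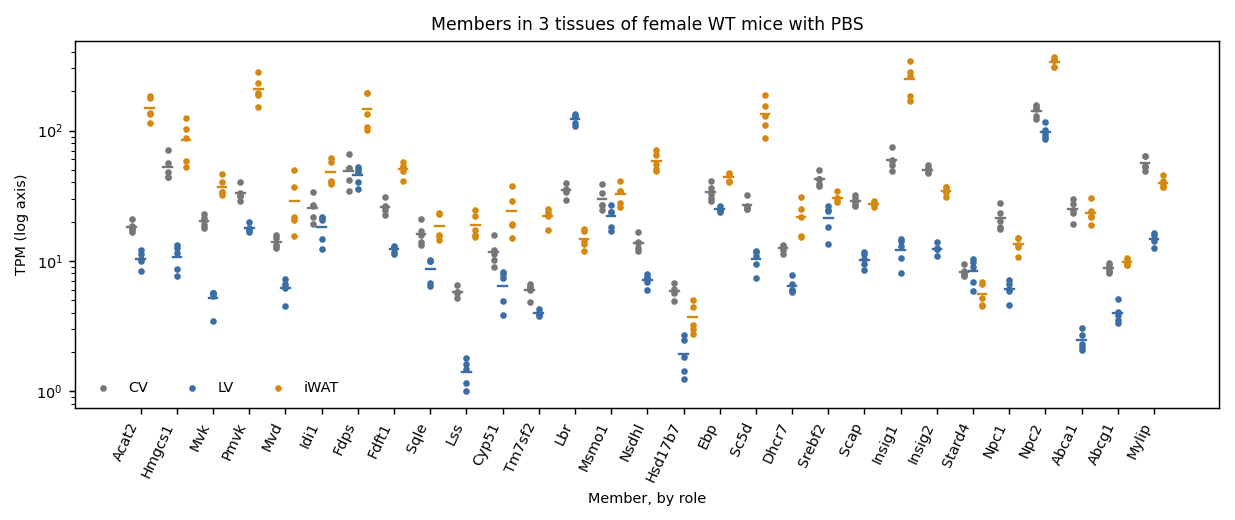
TPM on a log axis of the 29 genes in CV (grey), LV (blue) and iWAT (orange) of 5 female WT mice with PBS each, with a line at the mean. Most enzymes lie highest in iWAT, where Pmvk was at 152 to 282 TPM and Insig1 at 167.9 to 343, and Lbr lies highest in LV, at 108 to 135 TPM.

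A list of 22 other genes of sterol handling gave 0 DEGs in CV and in LV with leptin. In iWAT, 4 of the 22 rose and 1 fell, where 7.24% of all genes rose and 7.87% fell, and the median log2 fold change was 0.09. Those that rose were Cyp7b1, an oxysterol hydroxylase (1.41 ± 0.31, adjusted p = 0.00836), Soat1, which esterifies cholesterol for storage (0.90 ± 0.17, 0.00412), Gramd1a, which carries plasma membrane cholesterol to the endoplasmic reticulum (0.85 ± 0.18, 0.00675), and Nceh1, which hydrolyses cholesterol esters (0.66 ± 0.15, 0.0092). Srebf1, the paralog of Srebf2 that drives fatty acid synthesis, fell (-0.87 ± 0.24, 0.0219). Genes of the liver X receptors themselves, Nr1h2 and Nr1h3, had log2 fold changes of 0.10 and 0.09, and the proteases that release SREBP2, Mbtps1 and Mbtps2, of -0.10 and -0.12. Scarb1, a lipoprotein receptor, differed between tissues (-0.76 ± 0.14 in the interaction, adjusted p = 0.00171), with log2 fold changes of -0.40 in iWAT and 0.33 in CV. Cyp7b1, Gramd1a and Nceh1 also passed the interaction, with positive differences of 1.49, 0.81 and 0.52. Macrophage markers summed to 356 to 827 TPM with PBS and 503 to 966 with leptin in the same iWAT libraries, none of the 5 a DEG, and their part in these values was not tested.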

How the data were processed

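RNA was purified with spin columns, enriched by oligo dT, primed with random hexamers and sequenced as 100 bp paired reads on the DNBSEQ platform. The authors filtered reads with SOAPnuke and aligned them to GRCm38.p6 with HISAT and Bowtie2, and the submitters' processing notes also list GRCm39. The counting tool and its use of strand are not given in the sources used here. The authors deposited expected counts (an estimated count per gene, without normalization) and TPM per gene, scaled within each library. Of the 74693 features, 39063 had a numeric gene ID, and 51 counts in 6 genes were not whole and were rounded.

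Counts of the 14873 genes whose TPM averaged 0.4 or more over the 79 libraries were tested with edgeR 4.0.16 in R 4.3.3 (quasi-likelihood test, TMM scaling, Benjamini-Hochberg adjustment over all of them), each comparison in its own groups, with the 4 male WT groups fitted together for insulin and 4 groups for each interaction. A DEG needed an adjusted p-value below 0.05 together with a change of 0.5 or more on the log2 scale, an interaction the former only. Standard errors derive from the F statistic. TPM give levels. Values in every library of a comparison are given for genes called in it with leptin, genotype or insulin, which in the main fits was the case only for leptin in iWAT. They are also given for the 3 genes furthest up and down for CV against LV and iWAT. For Srebf2, Insig1 and Sqle they are given in all groups, with a range and median for the male WT leptin groups with and without insulin. Ebp, Npc2, Acat2, Mvk and Fdps in LV and others outside that rule were named after their values were seen. The members and lists were chosen with earlier results of these data known. Groups and replicate numbers come from the labels, and replicates are separate mice. No 2 libraries of a group were copies (lowest chi-square per gene 11.0). A leptin sample and a PBS sample with the same replicate number are from different mice. CV, LV and iWAT samples of the same number and group come from the same mouse by their labels, and the correlation of their deviations was -0.02 to 0.29 over 5 pairs per comparison. The main fits held no term for the mouse.

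Alternatives were DESeq2 1.42.0, RLE size factors, no filter on low values, limma 3.58.1 on log2(TPM + 1), replicate numbers as a block, no fold-change threshold, 1 joint fit of the CV groups, mouse series or muscle RNA as a covariate, and, for the leptin comparisons, leptin with insulin against leptin, and CV against LV and iWAT, libraries left out in turn. The procedure was tested on simulated data. Depth limits what low genes can show, and p-values rest on the spread between libraries of a group, each from a separate mouse. Fits over tissues also took libraries of the same mouse as independent. Promoters came from RefSeq (GRCm38.p6) for 23 of 29 genes.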

Additional observations from a re-analysis of the deposited data

Results flagged for a closer look

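In 9 of 230 groups of 4 to 10 values looked at, a library stood apart from the others of its group by Dixon's test at 95%, where chance gives about 12. Srebf2 was at 50.6 TPM in female cKO CV with PBS, replicate 3, and at 41.9 to 42.4 in the other mice of that group. In female WT CV, Sc5d was at 32.1 TPM in PBS replicate 2 (24.9 to 26.5 in the others) and Insig2 at 69.3 in leptin replicate 3 (38.0 to 46.7). In male CV, Insig1 was at 32.2 TPM in WT PBS replicate 4 (39.2 to 41.3 in the others). In the same tissue and sex, cKO leptin replicate 1 had the highest Sqle, 11.1 TPM (6.59 to 7.34), and Hmgcs1, 31.0 TPM (21.7 to 23.1). That cKO mouse was the leptin mouse of its group from the 100s series. In female WT LV, Mvk was at 3.46 TPM in PBS replicate 4 (5.37 to 5.69), and leptin replicate 1 held the highest Mvk, 8.84 TPM (6.02 to 6.82), and Tm7sf2, 7.19 TPM (4.14 to 4.99).

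The leptin effect in iWAT differed from that in CV, by the interaction test of edgeR at an adjusted p-value below 0.05, for 10 genes. On the log2 scale the difference was -1.78 for Lss, -1.66 for Sc5d, -1.59 for Fdps, -1.24 for Hmgcs1, -1.20 for Nsdhl, -1.16 for Hsd17b7, -1.05 for Dhcr7, -0.93 for Mvk, -0.89 for Npc2 and -0.84 for Pmvk. The estimate was lower in iWAT than in CV for each of the 10.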

How the results depend on the processing

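Of the counts of DEGs, 130 under other settings and 91 with a library left out stayed within 1.5 times the reported count, and 10 and 1 did not. Many of those that stayed were 0 in both fits, often in comparisons where few or none of all genes were called. Without a fold-change threshold 2 genes in place of 0 were called in female WT CV and 1 in male WT CV. DESeq2 gave 2 in female cKO CV, 1 in male cKO CV, 1 in female WT LV and 16 in place of 10 for the tissue interaction. A fit of all CV groups gave 1 in female cKO CV, and mouse series as a covariate gave 1 in female WT LV. Leaving out each library in turn, done for the 7 leptin comparisons, leptin with insulin against leptin, and CV against LV and iWAT, gave 15 to 18 in iWAT, 0 to 1 in male cKO CV (1 without PBS replicate 5), 15 to 17 for CV against LV, 18 to 20 for CV against iWAT and 0 in the others. In iWAT, 16 to 19 genes were called under the other tools, scalings and blocks and 13 with the adipocyte covariate.

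Replicate numbers as a block gave 1 DEG in place of 0 in male cKO CV (Hmgcs1) and 1 for leptin with insulin against leptin (Fdps), 16 in place of 17 in iWAT (without Mvd, also lost with mouse series as a covariate), 11 in place of 10 for the tissue interaction, and changed no other count by over 1.5 times. The numbers do not mark the same mouse between leptin and PBS, and the pairs' correlations reached 0.1 in every pair only for cKO against WT LV (0.11 to 0.33), where the count was 0 with and without the block.

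Values of single genes kept their call and direction in 487 cases under other settings and 371 with a library left out, and lost the call in 11 and 17. Another 7 changed sign, all for CV against LV with limma on TPM: Ebp to 0.42, Fdps to 0.085, Idi1 to 0.48, Msmo1 to 0.44, Npc2 to 0.54, Stard4 to 0.0088 and Tm7sf2 to 0.48. TPM is not rescaled between tissues, and the median of all genes was 0.87 there and 0.02 with edgeR.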
